A study of Mus musculus with 3 samples.

Results

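Transcripts of the heat shock proteins and of their J-domain (DnaJ) co-chaperones were followed in liver RNA from 3 groups of mice, with 1 library per group. The members were the protein-coding genes whose symbols start with Hsp90, Hspa, Hspb, Hspd1, Hspe1, Hsph1, Dnaja, Dnajb or Dnajc. Of 35275 genes in the deposited table, 80 carried such a symbol, and the 72 protein-coding ones were kept while 8 pseudogenes were left out. Levels are FPKM, a unit in which fragments are divided by gene length and by the library total, so that genes can be compared per length. At 1 FPKM or more in at least 1 library stood 56 of the 72 members.

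All mice were C57BL/6 males (C57BL/6J in the protocol), aged 10 weeks when feeding started. Control mice ate normal chow, for a number of weeks that the labels do not give. The library called NASH, for nonalcoholic steatohepatitis, stood for mice on western diet plus liquid fructose without treatment; its source label names 24 weeks. The TH-treated NASH mice ate that diet for 16 weeks and then took T3 at 35 ng/g and T4 at 7 ng/g, the thyroid hormones, in water with 15% fructose over 8 weeks. Whether animals were pooled is not stated. Because each group is a single library, differences between groups have no replicate check, no test between groups was run, and every statement is about these 3 libraries. All values below are given in the order control, NASH, TH-treated NASH.

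Heat shock proteins are molecular chaperones: HSP70 binds unfolded stretches of other proteins, HSP90 finishes the folding of kinases and receptors, HSP60 with HSP10 forms a folding chamber in mitochondria, and small HSPs hold unfolded proteins in solution. J proteins bring clients to HSP70 and start its ATP cycle, and nucleotide exchange factors end it. Heat shock factor 1 (HSF1) drives the inducible cytosolic genes, whereas the unfolded protein response drives those of the endoplasmic reticulum (ER), which is large in hepatocytes because they secrete most plasma proteins.

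The libraries held 54576236, 47009255 and 38303410 fragments on genes. Albumin (Alb), the main product of hepatocytes, stood at 32685, 20265 and 14907 FPKM, and all 14 hepatocyte markers measured passed 1 FPKM, as the liver label calls for. In bulk tissue, fewer cells of a type and less RNA per cell cannot be told apart. Of 14 macrophage markers, 14 were at least 1.5-fold higher in NASH than in control, and 13 in TH-treated NASH. Their summed level was 230, 726 and 998 FPKM. Of 12 stellate cell and fibroblast markers, 9 were higher in NASH than in control, and 5 were lower in TH-treated NASH than in NASH. Summed haemoglobin stood at 255, 347 and 1735 FPKM, so the TH-treated NASH library carried the most red cell RNA. The part of these shifts in the chaperone values was not tested.

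The 72 members together held 2820, 2825 and 2780 FPKM, or 0.527%, 0.536% and 0.489% of the FPKM of all genes. A few constitutive chaperones made up most of this sum. The 8 most abundant members, Hsp90ab1, Hspa8, Hspa5, Hsp90b1, Hspd1, Hspe1, Hspa9 and Hspb8, took 69.3%, 67.2% and 71.3% of the summed level. The median member at 1 FPKM or more had a mean level of 10.1 FPKM, against 6.03 FPKM for all features at that level. The total was nearly level as deposited, but this depended on scaling. Its log2 ratio in NASH against control was 0.003 as deposited and −0.21 to 0.02 under other scalings. In TH-treated NASH against NASH it was −0.02 as deposited and −0.13 to 0.02 under the others. In TH-treated NASH against control it was −0.02 as deposited and −0.21 to −0.05 under the others. The compartments differed more from each other. The ER members summed to 759, 637 and 592 FPKM, the lowest value being that of the treated library. The mitochondrial members summed to 660, 648 and 746 FPKM, the highest being that of the treated library, although TMM scaling placed it below control. Cytosolic and nuclear HSP70 and HSP110 summed to 342, 385 and 427 FPKM, and the higher value of NASH against control turned under median-of-ratios and TMM (trimmed mean) scaling. Small heat shock proteins summed to 223, 261 and 182 FPKM. Cytosolic HSP90 summed to 538, 580 and 529 FPKM, and here too the higher NASH value turned under those 2 scalings. The cytosolic and nuclear DNAJA and DNAJB members summed to 134, 155 and 158 FPKM, with the order of control and NASH turned by median-of-ratios scaling and that of the other pair by scaling to equal totals. The remaining DNAJC members of cytosol, nucleus and vesicles stood at 79.1, 79.8 and 83.8 FPKM, differences that other scalings turned. The 4 members placed in none of these groups, Dnajc22 among them, summed to 84.0, 80.0 and 62.5 FPKM. The treated library was lowest there under every scaling.

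**Figure D1:**
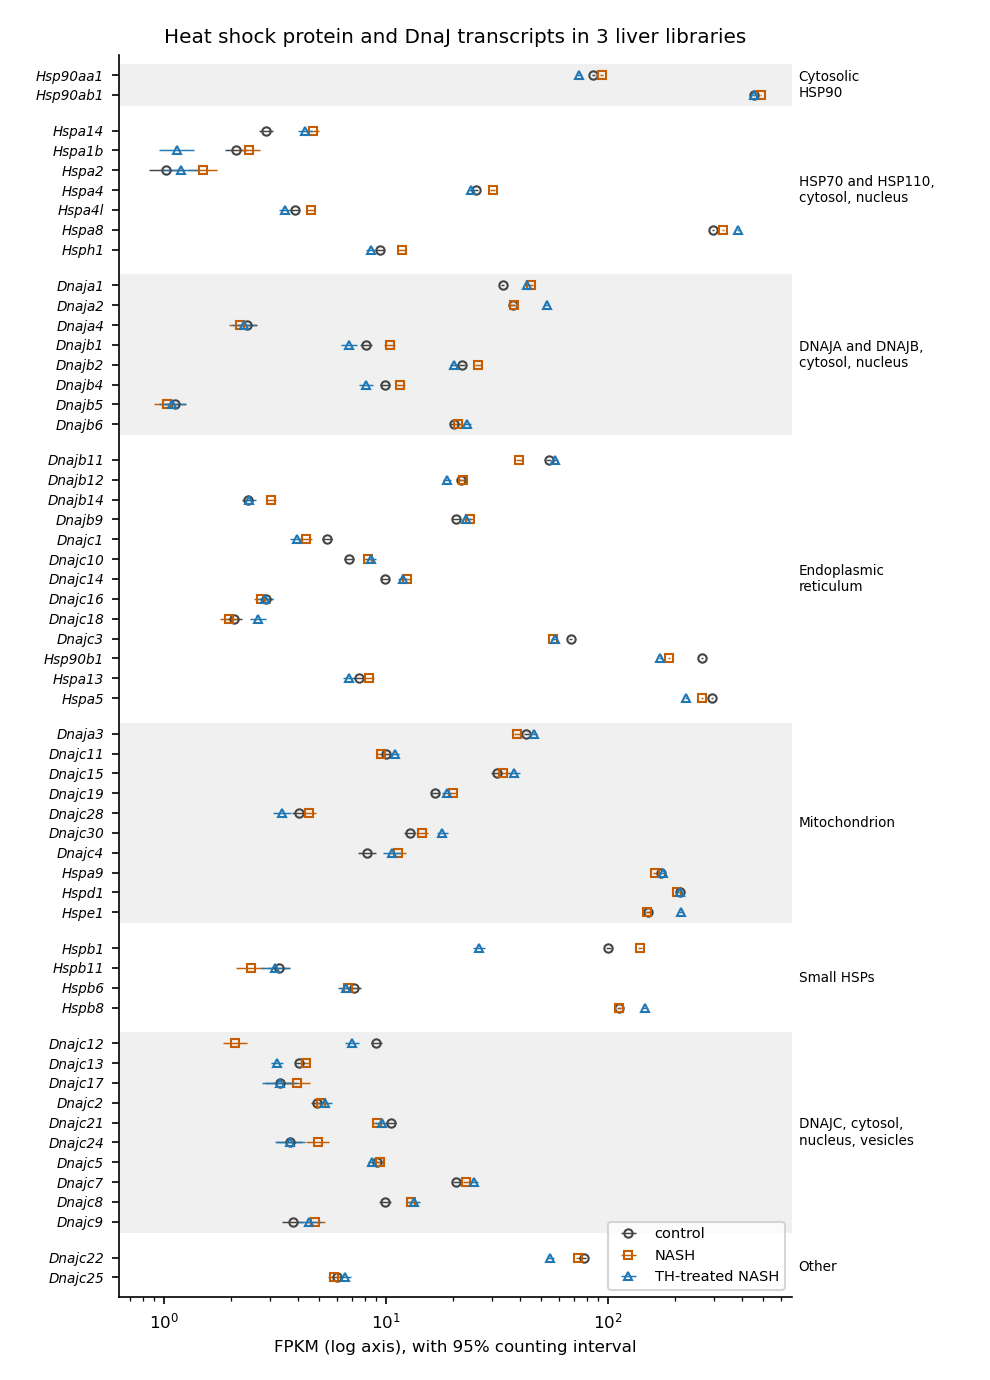
FPKM (log axis) of the 56 members at 1 FPKM or more in each of the 3 libraries, grouped by compartment, with 95% Poisson counting intervals that do not cover differences between animals. Most symbols of a gene nearly coincide, while Hspb1 (100.1, 139 and 26.2 FPKM) and Dnajc12 (9.03, 2.08 and 7.03 FPKM) are spread widely.

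**Figure D2:**
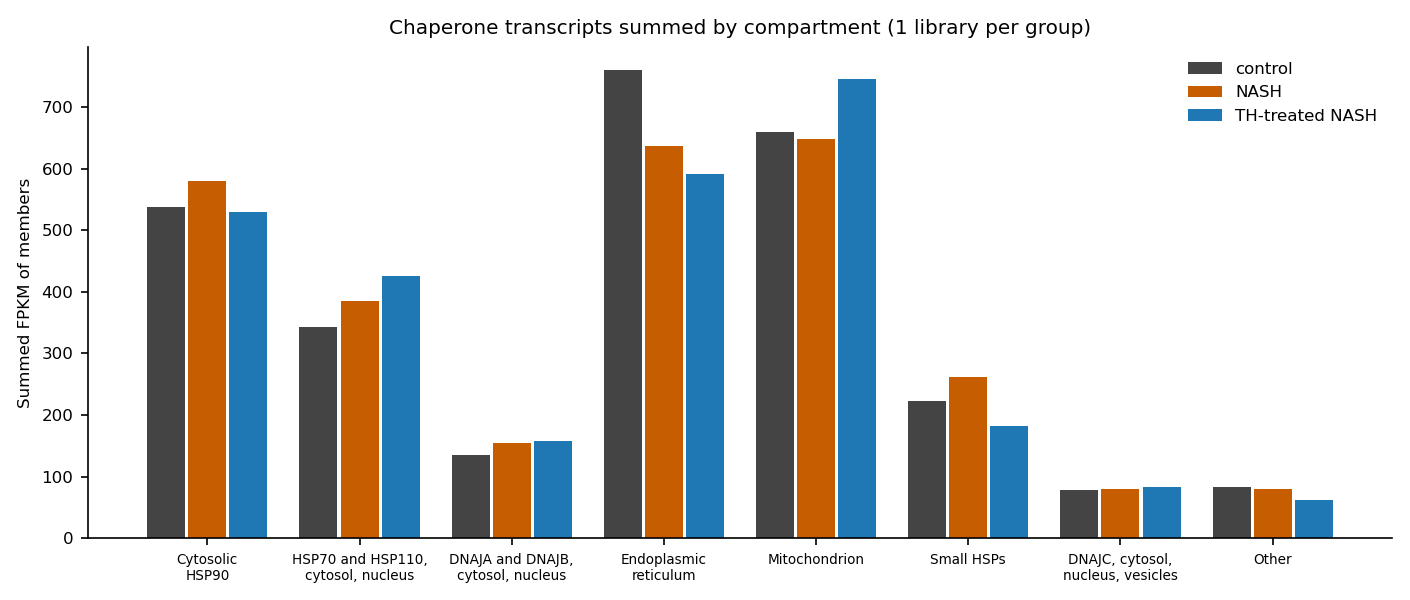
Summed FPKM of the members of each compartment, 1 bar per library, with no error bar because each group is 1 library. The ER bars run from 759 in control to 592 in TH-treated NASH, and the mitochondrial bar is highest in TH-treated NASH at 746; the higher NASH bars of HSP90, HSP70 with HSP110, and DNAJA with DNAJB turn under median-of-ratios scaling, and the treated mitochondrial bar falls below control under TMM scaling.

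Few members stood far apart between libraries. A feature counted as higher or lower when 2 libraries differed by at least 1.5-fold on a scale of log2(FPKM + 1), which understates the fold of low genes. Between NASH and control, 0 of 56 members were higher, against a background of 10.3% of 11835 features. In the same comparison 1 member, Dnajc12, was lower (1.79%), against a background of 2.53%. Between TH-treated NASH and NASH, 1 member was higher, again Dnajc12, against 8.42% of all features. Hspb1 and Hspa1b were lower there, which is 3.57% of members against 9.02% of all features. Between TH-treated NASH and control, 0 members were higher, against 15.5% of features, and 2 were lower, Hspb1 and Hsp90b1, against 6.86%. The share of members called was thus below the share of all features in all 6 counts as deposited. Under other scalings and centrings up to 3 members were lower in NASH than in control, and no share of all features is given there. With 0 to 2 members per count, these shares rest on very few genes.

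The medians of members stayed close to those of all features in NASH against control and in TH-treated NASH against NASH. In TH-treated NASH against control the members' median was the lower, as deposited and under 4 other scalings. The median log2 ratio was 0.10 for members and 0.12 for all features in NASH against control, −0.06 and −0.04 in TH-treated NASH against NASH, and 0.0043 and 0.11 in TH-treated NASH against control. In NASH against control, the 10th and 90th percentiles were −0.23 and 0.33 for members and −0.23 and 0.59 for all features. In TH-treated NASH against NASH the corresponding spans were −0.38 to 0.30 for members and −0.55 to 0.53 for all features. In TH-treated NASH against control they were −0.35 to 0.37 for members and −0.46 to 0.75 for all features. The NASH library enters the first 2 of these comparisons. Under median-of-ratios scaling the median of all features in NASH against control moved from 0.12 to −0.06 and that of members from 0.10 to −0.10. Of the 36 members above 0 in that comparison as deposited, 17 turned below 0 under at least 1 of the 4 scalings tried. For this reason small differences from control are given below as values, without a direction where a scaling turns it.

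**Figure D3:**
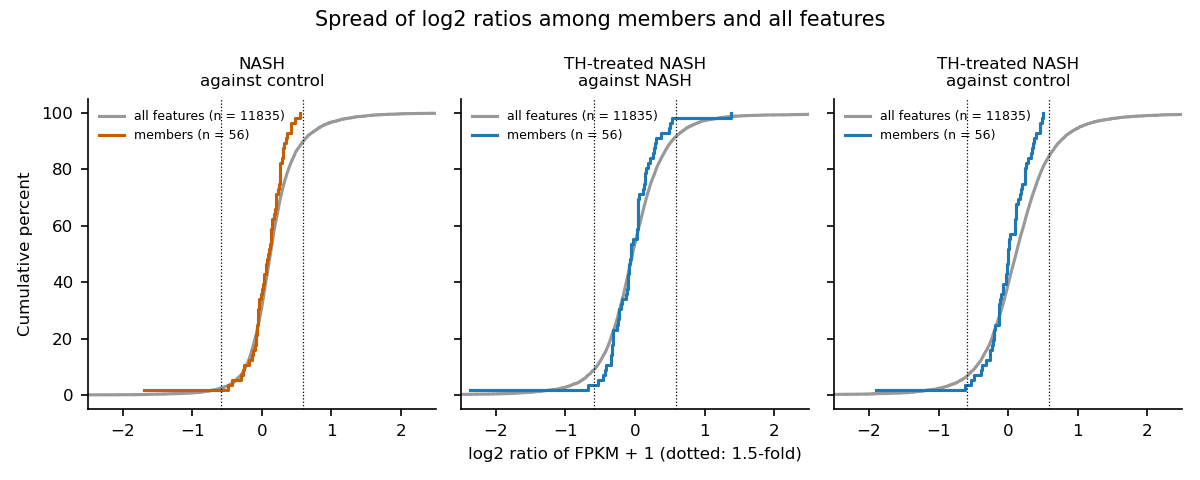
Cumulative percent of the 56 members (coloured) and of all 11835 features at 1 FPKM or more (grey) against the log2 ratio of FPKM + 1 in the 3 comparisons, with dotted lines at 1.5-fold. The member curves are steeper than the grey ones, with the 10th and 90th percentiles at −0.38 and 0.30 against −0.55 and 0.53 for TH-treated NASH against NASH.

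Hspb1 (HSP27 family, also called HSP25 in mice) stood furthest from NASH in the treated library. It encodes a small heat shock protein that holds unfolded proteins and binds to the actin and keratin skeleton. Its level was 100.1, 139 and 26.2 FPKM, from 5080, 6079 and 932 fragments. The treated library was thus the lowest and NASH the highest. TH-treated NASH was 5.31-fold below NASH (95% counting interval 4.96 to 5.70; log2 ratio −2.37) and 3.83-fold below control (3.57 to 4.11; −1.90). NASH was 1.39-fold above control (1.34 to 1.44), short of 1.5-fold on the log2 scale at 0.47. Here and below, a range in brackets covers counting error only. Hspb1 (ENSMUSG00000004951) spans chromosome 5 from 135887919 to 135889563 on the plus strand, as the deposited table gives positions, and the build of that table is not stated.

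The other small heat shock proteins did not follow Hspb1. Hspb8, a partner of the co-chaperone BAG3 in the selective autophagy of clients, stood at 112, 112 and 146 FPKM, 1.30-fold above NASH in the treated library (1.26 to 1.33). Hspb6 stood at 7.19, 6.73 and 6.61 FPKM, values within each other's counting error. Hspb11, which is now known as a subunit of the transport complex of cilia, stood at 3.27, 2.45 and 3.16 FPKM. Hspb2, Hspb7, Hspb9 and Hspb3, genes of muscle, heart and testis for the most part, were below 1 FPKM in all libraries, and Hspb3 had no fragment in any. The relative Cryab (alphaB-crystallin), outside the naming rule, stood at 2.38, 3.93 and 3.44 FPKM.

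Most markers of bile duct cells were highest in NASH, as Hspb1 was, while Sox9, which was highest in control, stood at 1.60, 1.35 and 0.492 FPKM. Of the 5 cholangiocyte markers at 1 FPKM or more, 3 were higher in NASH than in control and 4 were lower in TH-treated NASH than in NASH. The list summed to 31.1, 107 and 46.9 FPKM, most of it Spp1 (osteopontin, which macrophages make as well) at 27.0, 95.8 and 44.3 FPKM. Its defining members were scarce in all libraries: Krt19 stood at 0.767, 1.43 and 0.745 FPKM, Epcam at 0.844, 1.77 and 0.717 FPKM, and Krt7 and Cftr were below 1 FPKM throughout. Muscle, another tissue rich in Hspb1, was hardly represented. Of 9 striated muscle markers, 8 stayed below 1 FPKM in all libraries, 7 of these were listed at 0 in at least 1, and the ninth, Des, which stellate cells express too, stood at 1.86, 2.87 and 3.58 FPKM. The part of these cells in the Hspb1 values was not tested.

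The cytosolic and nuclear HSP70 and HSP110 genes had a higher median in NASH than in control under every scaling (0.25 as deposited, 0.04 to 0.27 under the others), with 7 of 7 measured members above 0 as deposited, where 68.5% of all features lay above 0. In TH-treated NASH against NASH, 6 of 7 lay below 0 and 1 above, where 46.3% of all features lay above 0, with a median of −0.32 (−0.43 to −0.28 under other scalings). Hspa1b, one of the pair of strictly stress-inducible HSP70 genes, was the member past 1.5-fold. It stood at 2.10, 2.41 and 1.14 FPKM, so the treated library was lowest, 2.12-fold below NASH (1.71 to 2.63; log2 ratio −0.67). Hspa1b (ENSMUSG00000090877) spans chromosome 17 from 34956436 to 34959238 on the minus strand in that table. Its near-identical neighbour Hspa1a stood at 0.105, 0.222 and 0.211 FPKM on 17, 31 and 24 fragments, and reads of the pair cannot be assigned with certainty. Both lay far under the constitutive gene of the family in these livers. Hspa8 (HSC70), which folds new proteins and uncoats clathrin vesicles, stood at 298, 329.6 and 384 FPKM, 1.16-fold higher in TH-treated NASH than in NASH (1.15 to 1.18). Hspa8 was the exception among the 7 in that comparison. Hsph1 (HSP110), an exchange factor of HSP70 that HSF1 induces, stood at 9.38, 11.7 and 8.49 FPKM, 1.38-fold below NASH in the treated library (1.30 to 1.47). Hspa4, a related exchange factor, stood at 25.3, 30.2 and 23.99 FPKM, and Hspa4l at 3.88, 4.58 and 3.48 FPKM. These 3 were highest in NASH and close to each other in the other pair of libraries. Hspa14, a ribosome-associated HSP70, stood at 2.87, 4.67 and 4.30 FPKM, 1.63-fold above control in NASH as a plain ratio (1.47 to 1.80) but at 0.55 on the log2(FPKM + 1) scale, under the threshold of 0.58. Hspa2, best known from testis, stood at 1.02, 1.49 and 1.19 FPKM.

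**Figure D4:**
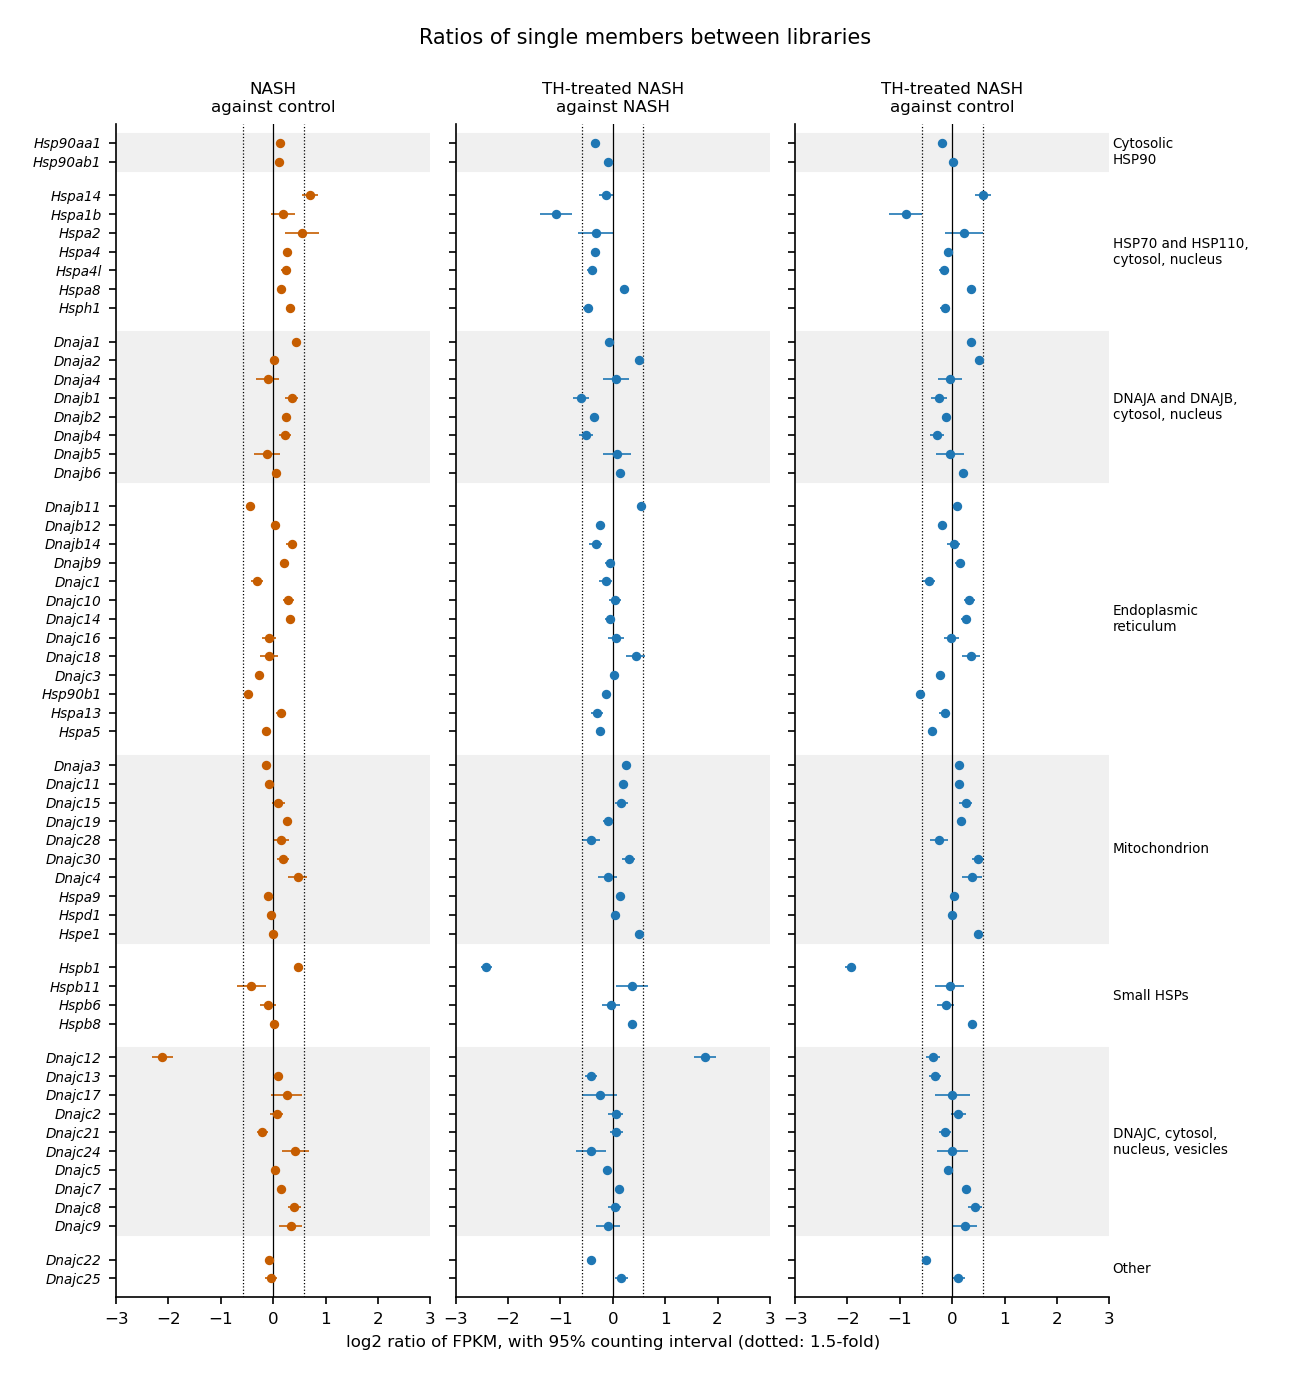
Plain log2 ratio of FPKM for each of the 56 members in the 3 comparisons, with 95% counting intervals and dotted lines at 1.5-fold. Most members lie between the dotted lines; Hspb1 (5.31-fold below NASH) and Dnajc12 (4.33-fold below control in NASH, 3.37-fold above NASH after treatment) lie far outside, and low genes such as Hspa14 can pass a line here without passing it on the log2(FPKM + 1) scale.

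Several J proteins of the cytosol were likewise highest in NASH. Dnajb1 (HSP40), the classic heat-induced partner of HSP70, stood at 8.13, 10.4 and 6.82 FPKM, 1.52-fold below NASH in the treated library (1.37 to 1.68; log2 ratio −0.54, short of the threshold). Dnajb4, its close relative, stood at 9.88, 11.6 and 8.09 FPKM. Dnajb2, which carries ubiquitin-binding motifs and sorts clients to the proteasome, stood at 22.0, 25.9 and 20.2 FPKM. These 3 had the same order, NASH first and the treated library last. Dnaja1, a farnesylated partner of HSC70, stood at 33.4, 44.9 and 42.9 FPKM, 1.34-fold above control in NASH (1.31 to 1.38). Its sister Dnaja2 stood at 37.1, 37.5 and 52.9 FPKM, 1.41-fold above NASH in the treated library (1.36 to 1.47). The type A pair therefore differed in which library stood apart. Dnajb6, which keeps polyglutamine proteins from clumping, stood at 20.1, 20.9 and 23.1 FPKM, and Dnaja4 and Dnajb5 stayed between 1.03 and 2.37 FPKM in every library.

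The cytosolic HSP90 pair stayed within 1.5-fold in all comparisons. Hsp90ab1, the constitutive form, stood at 452, 486 and 455 FPKM and was the most abundant member in all 3 libraries. Hsp90aa1, the form that stress induces, stood at 85.5, 93.6 and 74.2 FPKM, 1.26-fold below NASH in the treated library (1.23 to 1.30). NASH was the highest of the libraries for both as deposited, but median-of-ratios and TMM scaling placed it below control. Of 16 co-chaperones of the HSP90 cycle and adaptors between HSP70 and HSP90, 0 were past 1.5-fold in NASH against control. In TH-treated NASH 1 was higher than in NASH and 2 were higher than in control, and 0 were lower. The first was Fkbp5, an immunophilin of steroid receptor complexes that glucocorticoids induce, at 10.2, 9.09 and 22.1 FPKM, 2.43-fold above NASH (2.29 to 2.58). The other was Unc45a, a myosin chaperone, at 4.08, 5.30 and 7.03 FPKM. Stub1 (CHIP), the ubiquitin ligase that marks clients of HSP70, stood at 40.2, 39.8 and 59.3 FPKM, and the adaptor St13 (HIP) at 53.6, 55.7 and 40.1 FPKM. The adaptors thus lay on both sides, and the list's median in that comparison was −0.02.

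Hsf1, the gene of that factor, stood at 7.65, 7.77 and 8.23 FPKM, and Hsf2 stood at 9.05, 8.17 and 9.43 FPKM. Of 12 measured genes in the list of heat shock factors and further HSF1 targets, 1 was higher in NASH than in control, Serpinh1 (HSP47), the collagen chaperone of the ER, at 8.79, 19.5 and 9.72 FPKM. It was also the 1 gene of the list that was lower in TH-treated NASH than in NASH, 2.01-fold (1.86 to 2.17). Serpinh1 is a gene of collagen-making cells, and the collagen gene Col1a1 stood at 1.31, 6.81 and 1.23 FPKM, also highest in NASH. Against control, 1 gene of the list was higher in the treated library, Mrpl18, of the mitochondrial ribosome, at 42.0, 45.7 and 63.6 FPKM. The list's median was 0.29 in NASH against control, above 0 under every scaling, where that of all features was 0.12. In TH-treated NASH against NASH it was −0.10, below 0 under every scaling, with 5 genes above 0 and 7 below, and −0.04 for all features. Against control, 12 of 12 lay above 0 in the treated library, where 60.6% of all features did. Their median of 0.13 there turned below 0 under median-of-ratios and TMM scaling. All genes of the list summed to 442, 527 and 586 FPKM. The cold-inducible RNA-binding proteins, which go the other way from HSF1 targets when temperature changes, stood at 20.3, 16.5 and 23.5 FPKM for Cirbp and 14.4, 10.3 and 12.8 FPKM for Rbm3. Both were lowest in NASH, and neither passed 1.5-fold.

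Promoter sequences were searched for the element that HSF1 is known to bind. RefSeq windows (GRCm38.p6) were matched by symbol for 58 of the 72 members, and the 250 bases before each start were searched on both strands. The full heat shock element, GAANNTTCNNGAA or TTCNNGAANNTTC, was in the windows of 3 members, Hspd1, Hspe1 and Dnajb6, and in 153 of 32851 windows of all genes (0.466%). Its 2-unit core, GAANNTTC or TTCNNGAA, which each full element holds, was in 14 members and in 12.8% of all windows. Members were counted as genes with a match in any of their windows, and the background as single windows. A gene with several windows has more chances of a match, so the counts of members and of windows are unlike measures. The 3 stretches below are shown because Hspb1 and Hspa1b are the members lower in TH-treated NASH and Hspe1 holds the full element; capitals mark the core in the first pair and the full element, met in both overlapping phases, in the last. They lie at chr5:135887762-135887869 on the plus strand, chr17:34959295-34959382 on the minus strand and chr1:55088053-55088082 on the plus strand.
Hspb1: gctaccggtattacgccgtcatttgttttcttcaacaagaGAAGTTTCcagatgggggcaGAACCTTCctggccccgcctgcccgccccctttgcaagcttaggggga
Hspa1b: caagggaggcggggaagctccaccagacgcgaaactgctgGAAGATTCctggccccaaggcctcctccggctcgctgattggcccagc
Hspe1: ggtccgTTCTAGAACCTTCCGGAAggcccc
The core stands 2 times before Hspb1 and 1 time before Hspa1b. Hspe1 and Hspd1 lie head to head, and the full element counted for each of them is the same stretch of bases. Hspd1 itself stood at 210, 204 and 211 FPKM. The deposited table has the 2 genes overlapping by 112 bases on opposite strands, and fragments there cannot be assigned with certainty because the strand mode of counting is not stated. Hspb1 held the core but not the full element, and a match of letters says nothing on binding.

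In the ER, the chaperones that carry the lumen's folding load stood lower in NASH than in control. Hsp90b1 (GRP94), the HSP90 of the ER, stood at 264, 189 and 172 FPKM. The control was highest, and the treated library was 1.54-fold below it (1.51 to 1.56; log2 ratio −0.62), which made Hsp90b1 the second member lower than control. NASH was 1.40-fold below control (1.38 to 1.42; −0.48). Hspa5 (BiP or GRP78), the HSP70 of the ER and sensor of its stress pathways, stood at 294, 266 and 224 FPKM, 1.31-fold below control in TH-treated NASH (1.29 to 1.33). Both were ordered alike, control first and the treated library last. Hsp90b1 overlaps the genes 1810014B01Rik, on the opposite strand at 18.2, 12.8 and 20.8 FPKM, and Gm15344, and the strand mode of counting is not stated. In the deposited table Hsp90b1 (ENSMUSG00000020048) spans chromosome 10 from 86690209 to 86705509, minus strand.

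The J proteins of the ER were less uniform. Dnajb11 (ERdj3), which is secreted together with clients of BiP, stood at 53.9, 39.7 and 57.7 FPKM, lowest in NASH, where it was 1.36-fold below control (1.31 to 1.41). TH-treated NASH was 1.46-fold above NASH for it (1.40 to 1.51). Dnajc3 (P58IPK), which also restrains the kinase PERK, stood at 67.6, 56.1 and 57.3 FPKM, highest in control. Dnajb9 (ERdj4), which returns IRE1 to its resting state with BiP, stood at 20.7, 23.9 and 22.9 FPKM. Dnajc10 (ERdj5), a disulfide reductase, stood at 6.80, 8.29 and 8.54 FPKM, and Dnajc1, a J protein of the ER membrane, at 5.41, 4.35 and 3.96 FPKM. Of the 13 ER members, 7 lay below 0 in NASH against control, where 3717 of 11835 features did. In TH-treated NASH against NASH 8 lay below 0, where 6361 of 11835 features did. The medians of the ER members were −0.06 in both, so the lower sum rested on the abundant members. Neither the sum nor the medians changed direction under the 4 scalings.

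The ER stress element, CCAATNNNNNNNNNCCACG, was found in the 250 bases before 3 members, Hsp90b1, Hspa5 and Dnajc3, which each stood lower in NASH than in control, within 1.5-fold. It was in 37 of 32851 windows of all genes (0.113%), a count of windows again and not of genes. The second ER stress element, ATTGGNCCACG, was in 0 members and 10 windows, and the ATF4 type element, TGATGNAAT, in 0 members and 268 windows. Other ER members, such as Dnajb11 and Dnajc1, also stood lower in NASH than in control, while 6 of the 13 ER members lay above 0. The stretches of Hsp90b1, Hspa5 and Dnajc3 are shown because each holds the element, in capitals, that of Hsp90b1 2 times, once in each orientation. They lie at chr10:86705510-86705694 on the minus strand, chr2:34772019-34772048 on the plus strand and chr14:118937787-118937885 on the plus strand.
Hsp90b1: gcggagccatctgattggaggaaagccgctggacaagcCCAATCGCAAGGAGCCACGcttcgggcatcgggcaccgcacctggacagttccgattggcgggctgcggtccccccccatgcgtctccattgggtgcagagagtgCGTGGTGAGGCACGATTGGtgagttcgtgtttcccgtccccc
Hspa5: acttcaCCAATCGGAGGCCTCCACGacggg
Dnajc3: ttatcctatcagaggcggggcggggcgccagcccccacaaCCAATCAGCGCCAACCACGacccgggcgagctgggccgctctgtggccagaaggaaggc
Shared letters describe these promoters and say nothing on which factor was bound in these livers.

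The wider list of ER folding and unfolded protein response genes had the same direction as the abundant ER members. Of 31 measured genes, 0 were higher and 3 lower in NASH than in control, 1 was higher and 4 lower in TH-treated NASH than in NASH, and 1 was higher and 8 lower in TH-treated NASH than in control. The medians were −0.02, −0.17 and −0.18, below 0 under all scalings. Hyou1 (GRP170), the exchange factor of BiP, stood at 42.3, 30.7 and 17.7 FPKM, 2.39-fold below control in the treated library (2.30 to 2.48). Derl3, a channel component for degradation from the ER, stood at 15.2, 6.93 and 6.04 FPKM. Sdf2l1, a partner of Dnajb11, stood at 60.2, 36.8 and 31.1 FPKM. For these 3 genes, as for Hsp90b1 and Hspa5, control was highest and TH-treated NASH lowest. Creld2, a disulfide isomerase, had a different order, 62.1, 30.6 and 48.3 FPKM, with NASH lowest as for Dnajb11. The transcription factor Xbp1 stood at 136, 113 and 107 FPKM. Syvn1 (HRD1), the ubiquitin ligase of ER degradation, stood at 24.02, 19.8 and 12.1 FPKM.

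The summed level of the mitochondrial chaperones was higher in TH-treated NASH than in NASH under every scaling, and most of that difference as deposited lay in Hspe1. Against control, their median of 0.14 in the treated library turned below 0 under median-of-ratios and TMM scaling, down to −0.04. Hspe1 (HSP10), the lid of the mitochondrial folding chamber, stood at 151, 150 and 213 FPKM, 1.42-fold above NASH in the treated library (1.38 to 1.47; log2 ratio 0.51). Its partner Hspd1 (HSP60), the barrel of that chamber, stood at 210, 204 and 211 FPKM, within 1.03-fold of NASH. Lid and barrel thus did not move by the same amount. Hspa9 (mortalin), the HSP70 that pulls proteins into the matrix, stood at 173, 162 and 177 FPKM. Dnaja3 (TID1), its J protein in the matrix, stood at 42.7, 38.8 and 46.4 FPKM. Dnajc15, a J protein of the import motor, stood at 31.4, 33.5 and 37.5 FPKM, its paralog Dnajc19 at 16.6, 20.0 and 18.7 FPKM, and Dnajc30, of the inner membrane, at 12.8, 14.5 and 17.9 FPKM. Of the 10 mitochondrial members, 7 lay above 0 in TH-treated NASH against NASH, where 46.3% of all features did, with a median of 0.14 that stayed above 0 under all 4 scalings (0.04 to 0.18). Of 17 other genes of mitochondrial proteostasis, 1 was higher in NASH and in TH-treated NASH than in control, Hscb, the J protein of iron-sulfur cluster assembly, at 3.601, 6.67 and 6.14 FPKM. In TH-treated NASH against NASH, 0 of these 17 passed 1.5-fold. Of them 5 lay above 0 and 12 below, with a median of −0.10 (−0.21 to −0.07 under the 4 scalings), the side opposite to the members' median. Trap1, the HSP90 of mitochondria, stood at 68.2, 70.4 and 47.8 FPKM, lowest in the treated library, 1.47-fold below NASH (1.42 to 1.53).

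Gene length moved with the ratios of the treated library and bears on short members such as Hspe1. Over all features, the median log2 ratio of TH-treated NASH against NASH over 10 equal bins of gene length ran from 0.21 in the shortest genes (17 to 961 bases) to −0.12 in the longest (6002 to 26901 bases). In NASH against control it ran from 0.12 to 0.04, and in TH-treated NASH against control from 0.36 to −0.07. Hspe1 is 964 bases long, in the second bin, and its log2 ratio of 0.51 became 0.43 after subtracting the median of that bin. Against control, its log2 ratio of 0.49 in the treated library became 0.26. Hspb1 is 930 bases long, in the first bin, so its ratio of −2.37 lay opposite to genes of its length and became −2.57. The cause of the relation with length was not tested.

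**Figure D5:**
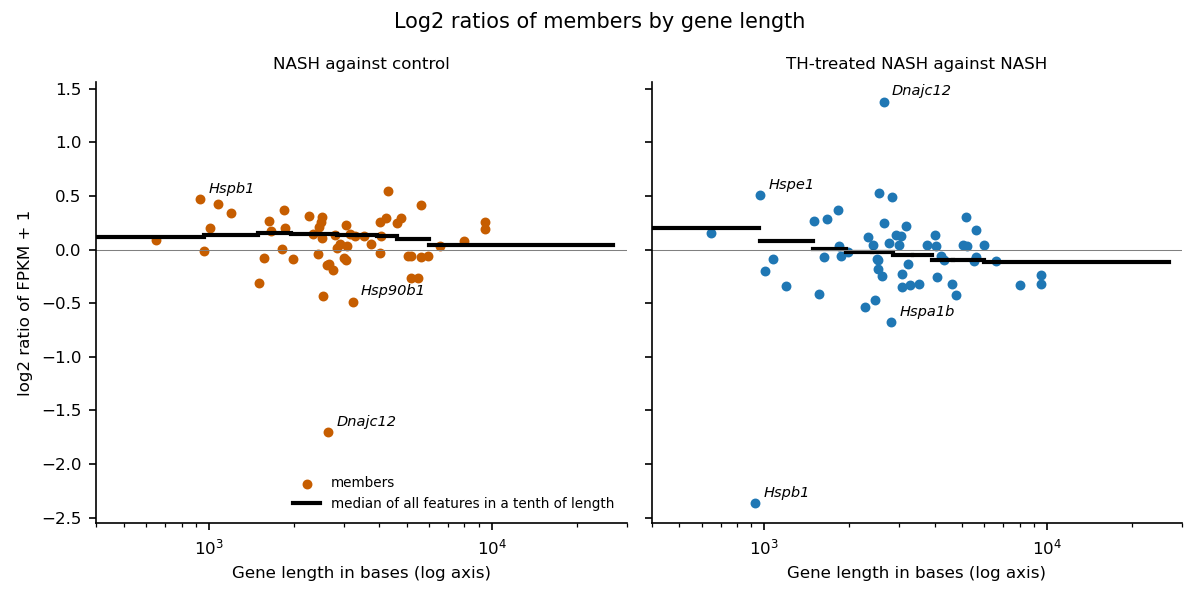
Log2 ratio of FPKM + 1 of the 56 members against gene length in bases (log axis) for 2 comparisons, with black bars at the median of all features in each of 10 bins of length. In TH-treated NASH against NASH the bars run from 0.21 at short to −0.12 at long genes, Hspe1 lies above and Hspb1 far below the bars of short genes.

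Dnajc12 was the member with the largest difference between NASH and control. It encodes a J protein of the cytosol that works as a co-chaperone of HSP70. Its level was 9.03, 2.08 and 7.03 FPKM, from 1303, 259 and 712 fragments, and the gene (ENSMUSG00000036764) spans chromosome 10 from 63382443 to 63408840 on the plus strand. NASH stood apart from both others, 4.33-fold below control (3.79 to 4.97; log2 ratio −1.70). TH-treated NASH was 3.37-fold above NASH (2.92 to 3.90; 1.38) and 1.28-fold below control (1.17 to 1.41; −0.32). Both calls rest on the NASH library, which the 2 comparisons share, so they are not independent. The calls held under every alternative tried.

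Genes of the integrated stress response, in which ATF4 turns on amino acid synthesis, were read beside it. Of 12 measured, 3 were higher and 2 lower in NASH than in control, 4 were higher and 1 lower in TH-treated NASH than in NASH, and 6 were higher and 0 lower in TH-treated NASH than in control. Asns, asparagine synthetase, stood at 6.22, 1.16 and 9.27 FPKM, 5.36-fold below control in NASH (4.37 to 6.61). Atf4 stood at 58.8, 42.8 and 58.2 FPKM. These 2, like Dnajc12, were lowest in NASH. Atf3 stood at 0.416, 2.78 and 2.30 FPKM, Fgf21, a hormone of the fasted liver, at 4.47, 9.72 and 24.03 FPKM, and Ddit3 (CHOP) at 7.47, 8.93 and 9.91 FPKM. The list therefore held different orders of the libraries.

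The remaining J proteins of the cytosol, nucleus and vesicles stayed within 1.5-fold. Dnajc7, which holds clients between HSP70 and HSP90, stood at 20.7, 22.9 and 24.9 FPKM. Dnajc8, tied to the spliceosome, stood at 9.84, 13.0 and 13.3 FPKM, 1.32-fold above control in NASH (1.21 to 1.44). Dnajc21, which acts in ribosome maturation, stood at 10.5, 9.09 and 9.52 FPKM, and Dnajc2 (zuotin), which sits on the ribosome, at 4.88, 5.10 and 5.30 FPKM. Dnajc5, the cysteine string protein of secretory vesicles, stood at 9.11, 9.35 and 8.64 FPKM. Dnajc13, of endosomes, stood at 4.05, 4.33 and 3.23 FPKM, and Dnajc9, a histone chaperone, at 3.797, 4.77 and 4.50 FPKM. Dnajc22, a membrane J protein counted outside that group, had unusually high levels for its class here, at 77.5, 73.3 and 54.9 FPKM. TH-treated NASH was 1.41-fold below control for it (1.35 to 1.47; log2 ratio −0.49), past 1.5-fold under TMM and median-of-ratios scaling and with either centring.

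The 16 members below 1 FPKM in all libraries reached at most 0.653 FPKM, that of Hspb2 in TH-treated NASH. They include Hspa12b, a gene of endothelial cells, at 0.290, 0.536 and 0.566 FPKM, its relative Hspa12a at 0.217, 0.367 and 0.474 FPKM, and the testis genes Dnajb3, Dnajb7, Dnajb8 and Dnajb13. No fragment was counted in any library for 4 of them, Dnajb8, Dnajc5b, Dnajc5g and Hspb3. For a gene of 2 kb, a count of 0 allows a level of at most 0.0275, 0.0319 and 0.0392 FPKM (3 counts in each library). These members entered no count of members higher or lower, while the promoter search and the sums over all 72 members included them.

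Other parts of the proteostasis network gave a background for the members. Of 11 nucleotide exchange factors, 0 were past 1.5-fold in NASH against control, and Hyou1 was the 1 that was lower in TH-treated NASH, against NASH and against control. Bag3, which HSF1 induces, stood at 8.95, 12.5 and 10.2 FPKM. Of 14 subunits of the cytosolic chaperonin CCT and of prefoldin, which fold actin and tubulin, 0 passed 1.5-fold in the 2 comparisons with NASH. Against control 1 was higher in the treated library, Pfdn5, at 56.4, 64.3 and 95.6 FPKM, and it is 1062 bases long. The proteasome list held 33 genes, subunits and the transcription factors Nfe2l1 and Nfe2l2 (NRF2). Of these, 2 were higher in NASH than in control, Nfe2l2 at 24.6, 41.9 and 24.1 FPKM and the subunit Psmd8 at 60.1, 94.5 and 95.2 FPKM. In TH-treated NASH against NASH, 2 of the 33 were lower, Nfe2l2 and Psmd1, a subunit of the regulatory particle, at 22.1, 24.03 and 10.4 FPKM. Against control, 2 were higher and 1, Psmd1, was lower in the treated library. Of 8 measured J proteins and relatives outside the naming rule, 1 was higher in NASH than in control (Hscb), and 1 was lower in TH-treated NASH than in NASH (Hyou1). Against control 2 were higher in the treated library, Hscb and Tor1a, and 1 was lower, Hyou1.

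Clock and immediate early genes, which follow the time of day and handling of animals, were read as well. Of all features, 10.3% were higher and 2.53% lower in NASH than in control. In TH-treated NASH 8.42% were higher and 9.02% lower than in NASH, and 15.5% were higher and 6.86% lower than in control. Of 16 measured clock genes, 0 were higher and 1 lower in NASH than in control, and 1 was higher and 4 lower in TH-treated NASH than in NASH. Against control, 1 was higher and 3 were lower in the treated library. Nr1d1 (REV-ERBalpha) stood at 34.2, 33.0 and 16.9 FPKM. Of 11 measured immediate early genes, 4 were higher and 2 lower in NASH than in control, and 5 were higher and 0 lower in TH-treated NASH than in NASH. Against control, 6 were higher and 0 lower. Egr1 stood at 5.74, 2.45 and 26.2 FPKM, highest in TH-treated NASH. Among chaperone genes called inducible above, Hspa1b, Dnajb1, Hsph1 and Hsp90aa1 were lowest in that library. Hspa1a, on few fragments, and the exchange factor Bag3 were lowest in control. The hour of collection is not given in the labels, and its part in the chaperone values was not tested.

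Marker lists of the other cell types and of the hormone's own targets complete the setting. Against control, 4 of 12 stellate cell and fibroblast markers were higher in TH-treated NASH, and against NASH 3 of 14 macrophage markers were higher there and 1, Gpnmb, lower. Of 12 endothelial markers, 1 was higher in NASH than in control, 0 were past 1.5-fold in TH-treated NASH against NASH, and 3 were higher in TH-treated NASH than in control. Of 4 lymphocyte markers at 1 FPKM or more, 1 was higher in NASH and 3 in TH-treated NASH, each against control. Of 7 blood and platelet markers, 2 were higher in NASH than in control, and 5 were higher and 1 lower in TH-treated NASH than in NASH. Against control, 6 were higher and 1 lower. Of 14 hepatocyte markers, 1 was higher and 5 lower in NASH than in control, 2 were higher and 3 lower in TH-treated NASH than in NASH, and 1 was higher and 6 lower in TH-treated NASH than in control. Cholangiocyte markers against control had 1 higher and 1 lower of 5 in the treated library. Among striated muscle markers Des alone was measured, and its log2 ratio was 0.44 in NASH and 0.68 in TH-treated NASH, each against control. Of 14 thyroid hormone response genes, 3 were higher and 1 lower in NASH than in control, 4 were higher and 1 lower in TH-treated NASH than in NASH, and 7 were higher and 1 lower in TH-treated NASH than in control. Dio1, the deiodinase that the hormone induces in liver, stood at 90.3, 129 and 429.7 FPKM, highest in the library labelled as treated.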

How the data were processed

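Liver polyA RNA was sequenced in 3 libraries, 1 per group. TopHat2 and HTSeq are named in the submitters' processing notes. Tool versions, counting mode and build were not given in the sources used here. What the authors deposited is 1 FPKM per gene and library, with gene lengths and positions. FPKM multiplied by length came in whole multiples of 1 step per library, so fragments were recovered, and 100% of values above 0 were whole within 0.01 fragment. All 72 members are in GENCODE M21 on the same chromosome, 50 with the same start and end.

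Log2 ratios are log2(FPKM + 1) differences over features at 1 FPKM or more in any library (11835 features, 56 members). Counted as higher or lower is 1.5-fold or more on that scale. Folds of single genes are FPKM ratios with exact 95% conditional binomial (Clopper-Pearson) intervals, and levels have exact Poisson ones. Since PCR duplicates may be among the fragments, both intervals and floors describe counting error alone. The members and 21 gene lists (297 entries, 290 found) were chosen with earlier results of these data known. Named were all members past 1.5-fold, the 12 most abundant, fixed anchors and, per list and comparison, up to 3 genes of largest ratio with Hsf1, Hsf2, Xbp1, Atf4, Ddit3, Cirbp, Rbm3, Hyou1, Alb and Dio1. Other members are given for completeness, and Krt19, Krt7 and Cftr were added after their values were seen. Alternatives were a pseudocount of 0.1 or 5 FPKM, a filter of 5 FPKM or none, 4 scalings (to a sum of 1000000, by median of ratios, by TMM, and without the 50 most abundant genes), a 2-fold threshold, and requiring the counting interval to pass 1.5-fold. Centring by gene length and on the median of all features were chosen after seeing the data. Fragment recovery, the counting intervals and the calls at 1.5-fold were tested on simulated counts with known changes, and the other steps were not. Python 3.11.15, numpy 2.4.6, pandas 2.3.3, scipy 1.17.1 and matplotlib 3.10.9 were used.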

Additional observations from a re-analysis of the deposited data

How the results depend on the processing

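The calls of Dnajc12 and Hspb1 held under every alternative. Hspa1b was not lower in TH-treated NASH against NASH with a pseudocount of 5 FPKM, at 5 FPKM or more, or at 2-fold, which left 1 member lower in each. Scaling to equal FPKM totals gave 4 lower there (Dnajb1 and Dnajb4 added), with a median of −0.17, and a pseudocount of 0.1 FPKM gave 3 (Dnajb1 added). In NASH against control, Hspa14 was the 1 member higher with a pseudocount of 0.1 FPKM and with equal totals. The number lower there was 3 under median-of-ratios and TMM scaling (Dnajb11 and Hsp90b1 added; medians −0.10 and −0.069), and 2 under centring by gene length and on the median of all features (Hsp90b1 added; medians −0.012 and −0.025). In TH-treated NASH against control, 4 members were lower under TMM and median-of-ratios scaling and with either centring (Dnajc22 and Hspa1b added), and 3 with a pseudocount of 0.1 FPKM, with equal totals and without the 50 most abundant genes (Hspa1b added). The medians were −0.15 under TMM, −0.14 under median-of-ratios and, centred on the median of all features, −0.11. At 2-fold 1 was lower, Hspb1. The causes of these moves were not tested, and the shares of all features under these settings are not given. Over the 4 scalings and both centrings, 343 log2 ratios of named members kept their side of the threshold and 17 passed it that had not before. The counting interval of the median member reached 0.09 to 0.11 log2 to either side. Leaving out a library was not possible, and no paired analysis was possible because each group has 1 library.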
